A study of Mus musculus with 16 samples.

Results

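The proteasome is the protease complex that degrades ubiquitin-tagged proteins, and its subunits are encoded by the Psm genes. Transcripts of this gene family were measured in Myc-induced B lymphoma cells and in normal B cells of mice on Affymetrix exon arrays, with 1 array per sample. Members were set by name: a gene was included where a transcript cluster, the array's unit for a gene, carried a single platform symbol of the family. Such a symbol is made of Psma, Psmb, Psmc, Psmd, Psme, Psmf or Psmg and a number. The choice was made with earlier results of these data known. The rule gave 40 genes of the 14860 tested. Symbols of the family that stand only on transcript clusters shared with another gene (Psma4, Psmd1 and Psme2) or on none in the table of names (Psma5, Psma8, Psmb3, Psmb5 and Psmg4) were not analysed here.

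There were 4 groups: 6 p53-246 lymphomas (p53(246/-)) and 6 p53-null lymphomas (p53(-/-)), both from lymph nodes, and 2 p53-246 and 2 p53-null samples of normal B cells from spleen. All came from a C57BL6/129 hybrid background, the B cells were isolated by magnetic immunodepletion of other cells, and both genotypes lack a named wild-type p53 allele. The labels do not give the Myc construct or its promoter, ages, or whether the samples of a group are separate animals, so each p-value covers only the spread among the arrayed samples. Tissue of origin and the series of array names differ exactly as cell type does and cannot be told apart from it.

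In the core particle, rings of alpha subunits (Psma) gate the entry and rings of beta subunits (Psmb) hold the active sites, of which Psmb5, Psmb6 and Psmb7 carry the standard catalytic threonines. The regulatory particle (Psmc ATPases and Psmd subunits) binds, deubiquitinates and unfolds substrates. Interferon induces the alternative catalytic subunits Psmb8, Psmb9 and Psmb10, which replace Psmb5, Psmb6 and Psmb7 in newly built immunoproteasomes, and the activator subunits Psme1 and Psme2. Immunoproteasomes are abundant in lymphoid cells, where they shape the peptides presented by MHC class I.

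The 40 genes fall into 5 alpha ring subunits, 5 standard beta ring subunits, 4 interferon-inducible subunits (Psmb8, Psmb9, Psmb10 and Psme1), 6 base ATPases, 10 other subunits of the regulatory particle, 6 assembly factors, 3 other activators or inhibitors and the thymus-restricted Psmb11. Values are log2 intensities as deposited. Levels of different genes are not compared, since each transcript cluster has its own probes. Differences were tested with limma across all 14860 genes, and a gene is said to rise or fall where its Benjamini-Hochberg adjusted p was under 0.05. A level of 5.16, the 95th percentile of 800 olfactory and vomeronasal receptor genes, is taken as the background.

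Some properties of the arrays touch what follows. Array medians ranged from 5.06 to 5.29 in lymphomas and from 5.26 to 5.35 in normal cells. P53-246 lymphoma 6 and p53-null normal sample 1 had the narrowest spread over genes, with standard deviations of 1.56 and 1.57, and are called the narrow arrays. The other normal arrays were at 1.69 to 1.75 and the other lymphoma arrays at 1.77 to 1.94, so the spread also differed with cell type. Of 7 measured mature B cell markers 6 fell in lymphomas, beside 17.8% of all genes. The mean of the 7 per sample was 7.27 to 8.23 in lymphomas and 10.43 to 10.71 in normal cells. Cd79a, a B cell receptor chain, did not pass (log2 difference -0.57, adjusted p = 0.330). Neutrophil markers rose in 5 of 8 measured genes, beside 20.4% of all genes.

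The upstream sequences of the genes on which the results turn are shown first. Psmb9 and Psmb8 lie within the MHC region of mouse chromosome 17, where the annotation orders them as H2-DMb1, Psmb9, Tap1, Psmb8, Tap2 and H2-Ob. Tap1 and Tap2 form the transporter that carries proteasome products into the endoplasmic reticulum. Psmb9 and Tap1 point away from each other with 225 bases between their annotated starts, so the sequence shown for Psmb9 is the whole stretch between them. Psme1 and Psme2 are neighbours on chromosome 14, with Emc9 between them. Psmb10 is on chromosome 8. Beside the interferon-inducible genes stand Psmb6, the standard subunit that Psmb9 replaces, and Psmg1, the assembly factor with the largest rise. Each sequence ends at the base before the start, is written 5′ to 3′ on the strand of its gene, and comes from RefSeq, build GRCm38.p6. Capitals mark matches on either strand to the motifs named after the sequences.
Psmb9, chr17:34187331-34187555, minus strand: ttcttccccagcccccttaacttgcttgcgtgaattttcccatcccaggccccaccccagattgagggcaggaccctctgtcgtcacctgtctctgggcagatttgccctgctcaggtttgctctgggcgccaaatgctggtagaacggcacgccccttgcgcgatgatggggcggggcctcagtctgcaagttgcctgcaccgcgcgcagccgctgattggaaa
Psmb8, chr17:34197945-34198194, plus strand: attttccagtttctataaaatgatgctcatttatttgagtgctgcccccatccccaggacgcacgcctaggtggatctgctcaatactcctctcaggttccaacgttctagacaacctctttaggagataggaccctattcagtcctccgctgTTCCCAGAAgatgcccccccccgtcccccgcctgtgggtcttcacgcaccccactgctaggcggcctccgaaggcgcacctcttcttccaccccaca
Psmb10, chr8:105938393-105938642, minus strand: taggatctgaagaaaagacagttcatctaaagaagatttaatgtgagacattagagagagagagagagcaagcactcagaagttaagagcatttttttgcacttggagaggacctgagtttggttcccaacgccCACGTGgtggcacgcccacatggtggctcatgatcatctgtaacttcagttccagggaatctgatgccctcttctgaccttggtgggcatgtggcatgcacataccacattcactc
Psme1, chr14:55578244-55578493, plus strand: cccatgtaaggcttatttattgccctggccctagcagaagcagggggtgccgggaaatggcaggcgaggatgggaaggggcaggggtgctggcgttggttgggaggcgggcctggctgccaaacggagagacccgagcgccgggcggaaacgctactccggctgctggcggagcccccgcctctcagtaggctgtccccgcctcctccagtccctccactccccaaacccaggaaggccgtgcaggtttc
Psmb6, chr11:70525107-70525356, plus strand: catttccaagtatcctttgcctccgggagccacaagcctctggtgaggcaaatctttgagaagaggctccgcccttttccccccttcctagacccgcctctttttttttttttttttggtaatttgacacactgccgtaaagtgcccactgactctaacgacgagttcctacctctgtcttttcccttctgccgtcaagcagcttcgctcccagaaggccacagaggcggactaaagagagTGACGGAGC
Psmg1, chr16:95990961-95991210, minus strand: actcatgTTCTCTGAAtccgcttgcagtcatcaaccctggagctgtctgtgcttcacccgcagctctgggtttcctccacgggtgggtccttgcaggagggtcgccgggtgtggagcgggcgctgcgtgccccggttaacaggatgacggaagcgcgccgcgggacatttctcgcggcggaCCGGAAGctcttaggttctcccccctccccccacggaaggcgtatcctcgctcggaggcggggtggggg

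Windows of 250 bases before the start were available for 33 of the 40 genes (35 windows). Both strands were searched for 5 sequences. The core of the interferon-stimulated response element, GAAA repeated after any 2 bases, was in the windows of 2 members, Psmd4 and Psmd9, and of 0 of the 4 interferon-inducible ones, against 2.98% of all 32851 windows of the table. The core of the gamma-activated site, TTCNNNGAA, was in those of Psmb8 and Psmg1, against 7.02% of all windows. The core of the antioxidant response element, TGACNNNGC, which factors such as Nfe2l1 bind, was in those of Psmb6, Psmc6, Psmd9 and Psmd12, against 10.2%. The E box CACGTG, bound by Myc with Max among others, was in those of Psmb10, Psmd9 and Psme3, against 6.02%. The ETS core CCGGAAG was in 13 of 35 windows (37.1%), belonging to 12 genes, against 6.91% of all windows and 9.75% of the 14898 windows of tested genes. The interferon-inducible genes had 0 windows with CCGGAAG, and the 12 genes that had it were Psma6, Psmc1, Psmc2, Psmc6, Psmd2, Psmd4, Psmd6, Psmd11, Psmd12, Psme3, Psme4 and Psmg1. A match is a description of the letters, and no match says only that these letters are not in this window.

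The first comparison asks how proteasome transcripts differ between lymphoma and normal B cells. Of the 36 members outside the interferon-inducible class 33 rose in lymphomas and 0 fell, with a median log2 difference of 1.09. Of the 4 interferon-inducible members 0 rose and 1 fell, with a median of 0.010. Over all genes tested 20.4% rose and 17.8% fell (38.3% changed), with a median of -0.094. The 12 lymphomas lay above all 4 normal samples for 28 of the 40 members, against 13.5% of all genes, and none of these 28 is interferon-inducible. In bulk samples, fewer cells of a type and less RNA per cell cannot be told apart.

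**Figure D1:**
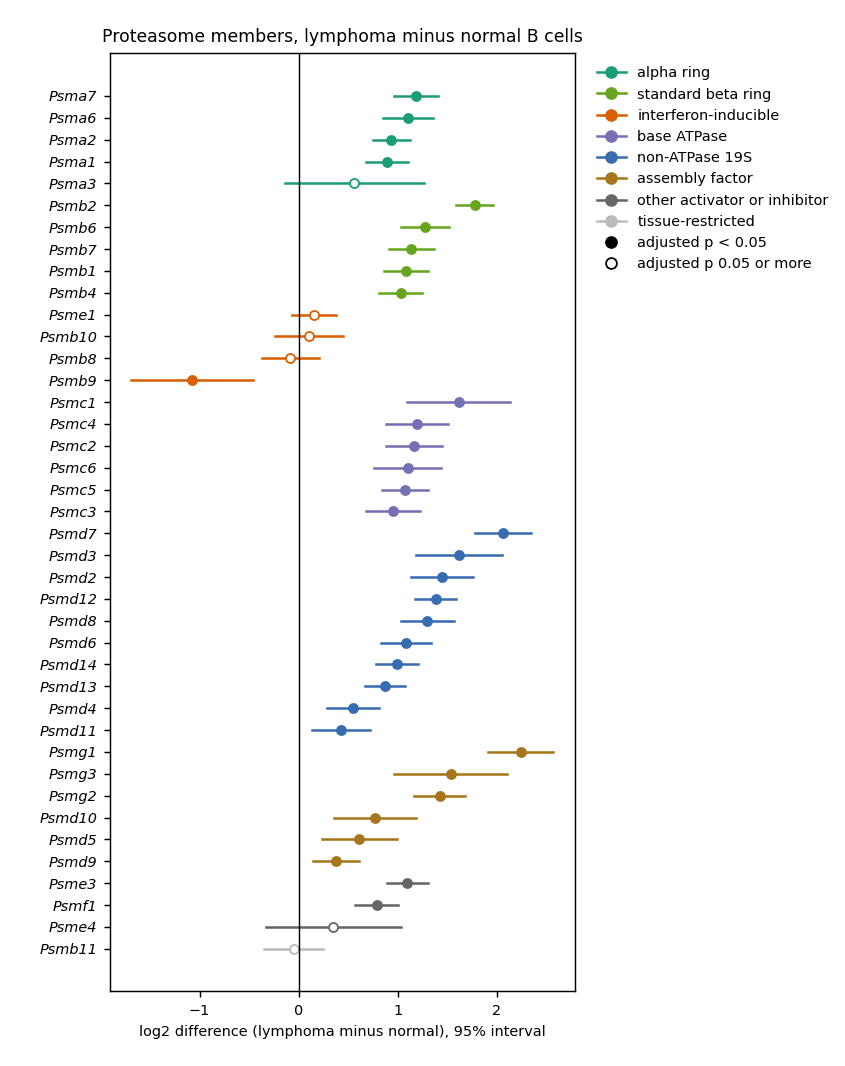
Log2 difference of each member, lymphoma minus normal B cells with both genotypes averaged (points, with 95% intervals from limma, 12 lymphomas and 4 normal samples), grouped by subunit class; filled points have an adjusted p under 0.05. The interferon-inducible members lie between -1.08 and 0.16, and the standard core and regulatory members lie to the right of 0.

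Alpha subunits form the outer rings through which substrates enter. Of the 5 measured, 4 rose. Psma7 had log2 values of 9.71, 10.02 and 10.21 (lowest, median and highest) in p53-246 lymphomas and 9.97, 10.07 and 10.27 in p53-null lymphomas, against 8.72 and 8.92 in p53-246 and 8.96 and 8.78 in p53-null normal cells. Its log2 difference was 1.19 (SE 0.10, 2.27-fold). Psma6 followed at 1.10 (SE 0.12), Psma2 at 0.94 and Psma1 at 0.89. All lymphomas stood above all normal samples for these 4 genes.

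Psma3 stood apart. It ranged from 5.20 to 6.41 in lymphomas, against 5.32 and 5.40 in p53-246 normal cells and 3.65 and 6.24 in p53-null normal cells, so 2 lymphomas lie above all normal samples and 0 below. Its log2 difference was 0.56 (SE 0.33, adjusted p = 0.194) and did not pass. The mean of its p53-null normal samples, 4.94, lies below background, so the size of this difference is limited there. Without p53-null normal sample 1 the difference was -0.084, where the sample left in that group, at 6.24, lies above background. Without p53-null normal sample 2 it was 1.21, where the sample left, at 3.65, lies below background and limits the size.

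All 5 standard beta subunits rose. Psmb2, a ring subunit without an active site, had the largest difference of the class at 1.78 (SE 0.088, 3.42-fold, adjusted p = 6.1e-11, limma). Its values were 10.09, 10.32 and 10.41 (lowest, median and highest) in p53-246 lymphomas and 10.41, 10.54 and 10.66 in p53-null lymphomas, against 8.55 and 8.55 in p53-246 and 8.81 and 8.62 in p53-null normal cells. The lymphomas were thus more than 1 log2 unit above every normal sample. Psmb6, the caspase-like catalytic subunit, was at 1.28 (SE 0.11, 2.43-fold), with 9.57 to 10.30 in lymphomas and 8.44 to 8.80 in normal cells. Psmb7, the trypsin-like catalytic subunit, was at 1.14 (SE 0.11, 2.20-fold), with 10.91 to 11.48 in lymphomas and 10.03 to 10.18 in normal cells. Psmb1 and Psmb4, which have no active site in the mature ring, were at 1.08 and 1.03.

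The interferon-inducible subunits behaved otherwise. Psmb9 (transcript cluster 6855013), the inducible counterpart of Psmb6, had log2 values of 7.25, 7.10, 7.10, 8.16, 7.84 and 5.84 in p53-246 lymphomas 1 to 6 and 7.19, 6.71, 7.79, 7.25, 7.17 and 7.70 in p53-null lymphomas 1 to 6. Normal cells had 8.42 and 8.53 (p53-246) and 8.08 and 8.31 (p53-null). Of the 12 lymphomas 11 lay below every normal sample, and p53-246 lymphoma 4 lay between the normal samples. In limma Psmb9 had a log2 difference of -1.08 with an SE of 0.29, which is 2.11-fold lower in lymphomas, at an adjusted p = 0.00673.

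Psmb8 (transcript cluster 6850021), the inducible counterpart of Psmb5, had 7.88, 8.35 and 8.64 (lowest, median and highest) in p53-246 lymphomas and 8.24, 8.50 and 8.64 in p53-null lymphomas. Normal cells had 8.45 and 8.27 (p53-246) and 8.56 and 8.58 (p53-null). The groups overlap, with 3 lymphomas above and 4 below all normal samples, and the log2 difference of -0.084 (95% interval -0.37 to 0.21, adjusted p = 0.655) did not pass. With arrays centred on their medians it was 0.049 (adjusted p = 0.838). Over the 10 alternatives of processing it ranged from -0.28 to 0.049, with adjusted p of 0.176 to 0.838. With single samples left out it ranged from -0.13 to -0.041.

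Psmb10 (transcript cluster 6985004), the inducible counterpart of Psmb7, had 6.21, 6.52 and 7.02 in p53-246 lymphomas and 6.12, 6.60 and 6.80 in p53-null lymphomas (lowest, median and highest), against 6.51 and 6.27 in p53-246 and 6.46 and 6.54 in p53-null normal cells. Lymphomas lay on both sides of the normal samples, 6 above and 4 below all of them. The log2 difference was 0.10 (95% interval -0.24 to 0.45, adjusted p = 0.639). With the replicate number as a block it was -0.047 (adjusted p = 0.873).

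Psme1 (transcript cluster 6819252) encodes the alpha subunit of the activator that opens the core particle's gate without ATP. It had 10.14, 10.29 and 10.59 in p53-246 lymphomas and 10.28, 10.43 and 10.70 in p53-null lymphomas (lowest, median and highest), against 10.46 and 10.21 in p53-246 and 10.10 and 10.19 in p53-null normal cells. The groups overlap, and the log2 difference of 0.16 (95% interval -0.065 to 0.38, adjusted p = 0.256) did not pass. The upper bounds for Psmb8, Psmb10 and Psme1 (0.21, 0.45 and 0.38) lie below the lower bounds for Psmb6 and Psmb7 (1.04 and 0.91).

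**Figure D2:**
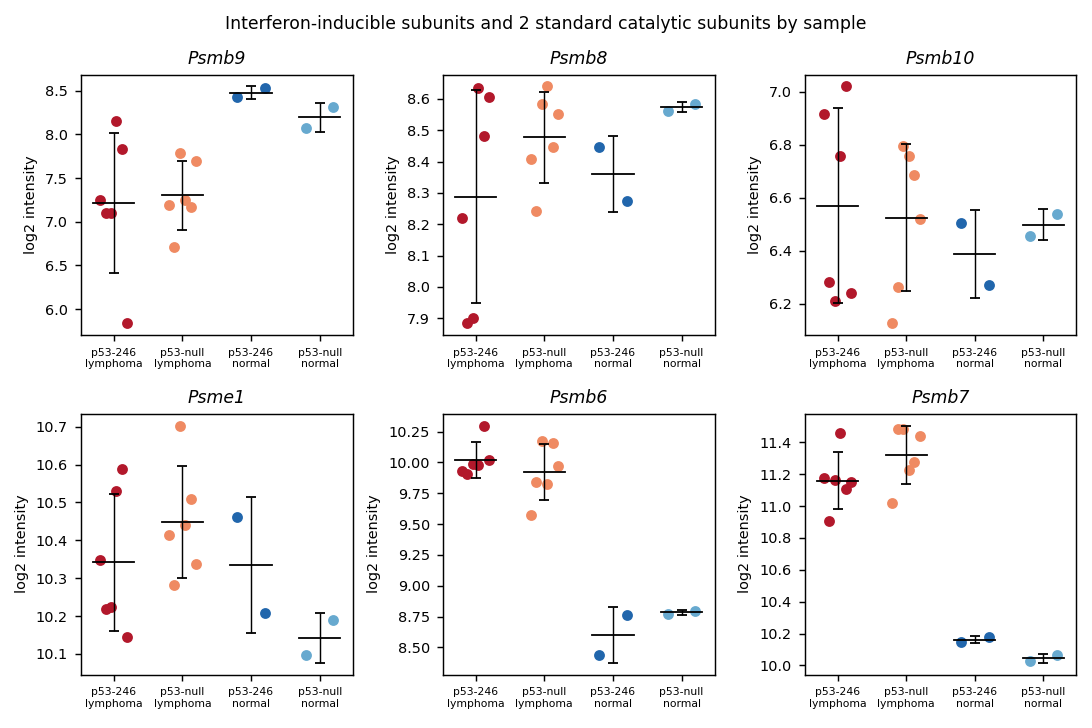
Log2 intensity in each sample (points, with the group mean as a line and the SD as bars) of the interferon-inducible Psmb9, Psmb8, Psmb10 and Psme1 and of the standard catalytic Psmb6 and Psmb7, with 6, 6, 2 and 2 samples a group; the vertical axes differ between panels and do not start at 0. For Psmb6 and Psmb7 all lymphomas lie above all normal samples, and for Psmb9 11 of 12 lie below them.

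The unequal change of an inducible subunit and the standard subunit it replaces was tested as the within-array difference of both, for the pairs with both genes measured. Psmb9 minus Psmb6 averaged -2.71 ± 0.58 in lymphomas (SD, n = 12) and -0.36 ± 0.29 in normal cells (SD, n = 4). It ranged from -4.18 to -1.82 in lymphomas and from -0.69 to -0.018 in normal cells. The change was -2.36 on the log2 scale, an unequal change of 5.12-fold (two-sided exact permutation test over the 1820 relabellings, p = 0.000549, the smallest it can give, and adjusted p = 0.000549 over the 2 pairs). Psmb10 minus Psmb7 averaged -4.69 ± 0.32 in lymphomas (SD, n = 12) and -3.66 ± 0.17 in normal cells (SD, n = 4). Here the change was -1.03, an unequal change of 2.05-fold, with the same exact p. Each of the 12 lymphomas lay below all 4 normal samples for both pairs, so Psmb9 and Psmb10 changed less, or in the opposite direction, than their standard counterparts. Psmb8 has no such test, since Psmb5 was not analysed here.

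**Figure D3:**
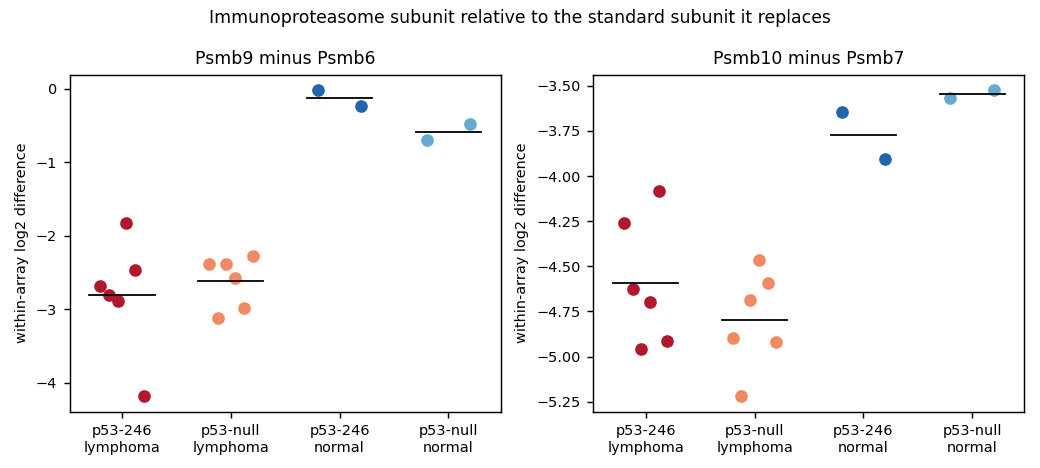
Within-array log2 difference of Psmb9 minus Psmb6 (left) and Psmb10 minus Psmb7 (right) in each sample (points, with the group mean as a line); only the shift between groups is read, since each gene has its own probes. All 12 lymphomas lie below the 4 normal samples in both panels.

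Markers of several other blood cell types moved in the same comparison, in which 20.4% of all genes rose and 17.8% fell. Of 6 T cell markers and 2 erythroid markers 0 rose and 0 fell. The T cell markers averaged 4.35 to 4.44 per sample in p53-246 normal and 4.75 to 6.26 in p53-null normal cells. In p53-246 and p53-null lymphomas they averaged 4.51 to 5.40 and 4.51 to 6.68. Macrophage and monocyte markers fell in 5 of 7 measured genes, with log2 differences down to -4.33 (Cybb). The means of Fcgr1 lay below background in lymphomas and in normal cells, so the size of its fall is not read. Cd14 (0.062) and Marco (-0.22) did not pass. Which cells gave the Cybb signal, at 11.04 to 11.31 in normal cells, was not tested. The mean of the 7 genes per sample was 4.93 to 5.61 in p53-246 and 4.84 to 5.97 in p53-null lymphomas. It was 6.32 to 6.86 in p53-246 and 6.42 to 6.70 in p53-null normal cells. Dendritic cell markers fell in 2 of 5 genes, with 4.70 to 5.31 and 4.61 to 5.05 in p53-246 and p53-null lymphomas and 5.53 to 5.53 and 5.55 to 5.74 in p53-246 and p53-null normal cells. Natural killer cell markers fell in 3 of 4. Platelet markers fell in 4 of 4, among them Ppbp by a log2 difference of -5.30, with sample means of 4.33 to 5.07 and 4.24 to 4.80 in p53-246 and p53-null lymphomas and 6.18 to 7.29 and 5.99 to 6.49 in p53-246 and p53-null normal cells. All 4 platelet and all 4 natural killer cell markers lay below background in both lymphoma groups. In normal cells the means of Itga2b and Gp9 (platelet) and of Ncr1 and Prf1 (natural killer) also lay below background. The sizes of the falls of these genes are therefore not read. Of the macrophage markers 5 lay below background in each lymphoma group and 3 in each normal group. The part of such cells in the values of the interferon-inducible subunits was not tested.

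The 6 ATPases of the base, which unfold substrates, all rose. Psmc1 had the largest difference (1.62, SE 0.25, 3.07-fold), with 6.60 to 8.02 in lymphomas and 5.70 to 5.88 in normal cells, and it spread more between lymphomas than the other ATPases. Psmc4 was at 1.19 (SE 0.15) and Psmc2 at 1.16 (SE 0.13). The smallest differences were those of Psmc5 (1.08, SE 0.11) and Psmc3 (0.95, SE 0.13). For 5 of the 6 the lymphomas lay above all normal samples. The exception was Psmc6, with p53-246 lymphoma 6 at 8.63 and p53-246 normal sample 2 at 8.67.

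All 10 other regulatory particle subunits rose. Psmd7, a scaffold partner of the deubiquitinase Psmd14, had 9.77, 10.10 and 10.38 in p53-246 lymphomas and 9.75, 10.16 and 10.45 in p53-null lymphomas (lowest, median and highest), against 8.05 and 8.19 in p53-246 and 7.80 and 8.28 in p53-null normal cells. Its log2 difference was 2.06 (SE 0.13, 4.17-fold, adjusted p = 1.6e-09, limma), the largest of the subunits proper. Psmd3 of the lid was at 1.62 (SE 0.21) and Psmd2, a base scaffold, at 1.45 (SE 0.15). Psmd14 itself was at 0.99 (SE 0.10), with 10.81 to 11.21 in lymphomas and 9.67 to 10.27 in normal cells. At the low end stood the ubiquitin receptor Psmd4 (0.55, SE 0.12) and Psmd11 of the lid (0.43, SE 0.14, adjusted p = 0.0201). Psmd11 lost its call after quantile normalization (0.31, adjusted p = 0.0777), without the narrow arrays (0.32, adjusted p = 0.117), with the replicate block (0.30, adjusted p = 0.248), without p53-246 normal sample 1 (0.37, adjusted p = 0.110) and without p53-null normal sample 1 (0.30, adjusted p = 0.168).

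Assembly factors include the member with the largest difference of all 40. Psmg1, which with Psmg2 forms a chaperone of alpha ring assembly, had 8.69, 8.88 and 9.43 in p53-246 lymphomas and 8.73, 9.13 and 9.52 in p53-null lymphomas (lowest, median and highest), against 6.87 and 7.0 in p53-246 and 6.48 and 6.83 in p53-null normal cells. It rose by 2.24 (SE 0.16, 4.72-fold, adjusted p = 4.2e-09, limma), and every lymphoma was well above every normal sample. Psmg2 was at 1.42 (SE 0.12). Psmg3, of a further chaperone pair, was at 1.54 (SE 0.27). Its normal samples, at 4.59 to 4.81, lie below background, so this rise is a lower bound, and lymphomas spread from 5.21 to 7.56.

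The chaperones of the base rose less: Psmd10 (gankyrin) by 0.77 (SE 0.20), Psmd5 by 0.61 (SE 0.18, adjusted p = 0.0120) and Psmd9 by 0.38 (SE 0.11, adjusted p = 0.0119). For each of these 3 genes at least 10 of 12 lymphomas lay above all normal samples. Psmd5 lost its call without p53-246 normal sample 1 (0.54, adjusted p = 0.0725), without p53-null normal sample 1 (0.45, adjusted p = 0.115) and with the replicate block (0.58, adjusted p = 0.0650). Psmd9 lost it without p53-246 normal sample 2 (0.36, adjusted p = 0.0537), without p53-null normal sample 1 (0.33, adjusted p = 0.0637) and with the replicate block (0.23, adjusted p = 0.181).

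The remaining activators differed among themselves. Psme3, the nuclear relative of Psme1 that interferon does not induce, rose by 1.10 (SE 0.10, 2.14-fold), with 10.36 to 10.88 in lymphomas and 9.37 to 9.61 in normal cells. Psmf1, an in vitro inhibitor of the core particle, rose by 0.79 (SE 0.10). Psme4, a large activator, had 9.85, 10.08, 9.46, 9.04, 8.37 and 7.73 in p53-246 lymphomas 1 to 6 and 7.97, 8.80, 8.83, 8.71, 8.98 and 9.16 in p53-null lymphomas 1 to 6, against 8.65 and 8.74 in p53-246 and 8.35 and 8.51 in p53-null normal cells. With 8 lymphomas above and 2 below all normal samples, its log2 difference of 0.35 (SE 0.32, adjusted p = 0.408) did not pass. The thymus-restricted Psmb11 lay below background in all 4 groups (3.43 to 4.19 in lymphomas, 3.62 to 4.24 in normal cells).

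**Figure D4:**
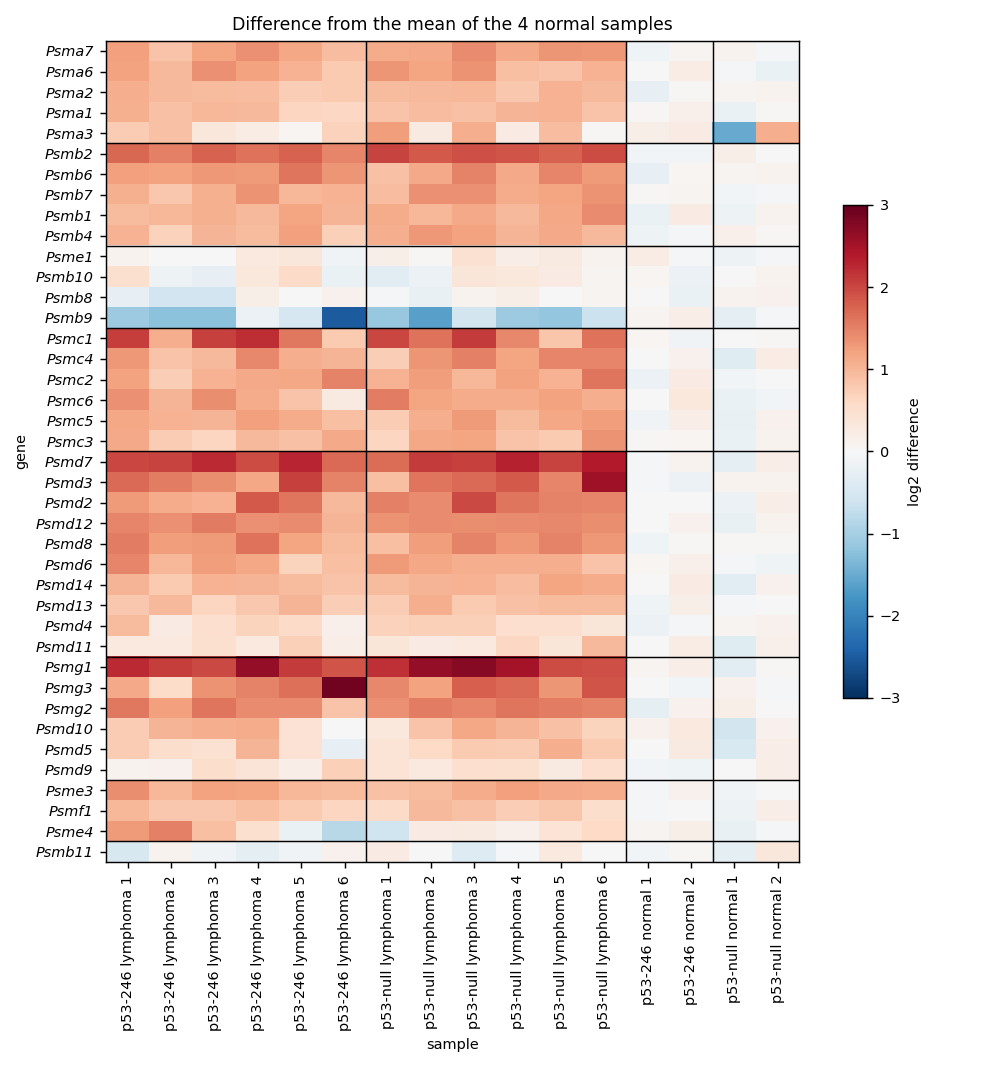
Difference of each sample from the mean of the 4 normal samples, in log2 units (colour, limits -3 and 3), for the 40 members (rows, by class) in 16 samples (columns). In the lymphoma columns most rows are red. Those of Psmb8, Psmb9, Psmb10, Psme1 and Psmb11, and several cells of Psma3, Psme4, Psmd9 and Psmd11, are pale or blue. The lowest Psmb9 is that of p53-246 lymphoma 6.

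Each genotype was also set against its own normal samples. In p53-246 cells 30 members rose and 1 fell, against 14.5% and 10.6% of all genes (25.2% together). In p53-null cells 32 rose and 0 fell, against 17.5% and 14.4% of all genes (31.9% together). Psmb9 had log2 differences of -1.26 in p53-246 cells (SE 0.41, adjusted p = 0.0311, limma) and -0.89 in p53-null cells (SE 0.41, adjusted p = 0.111, limma). In p53-246 cells Psmb9 lost its call with arrays centred on their medians (-1.16, adjusted p = 0.0752), with an unmoderated linear model (-1.26, adjusted p = 0.0753) and without p53-246 normal sample 1 (-1.32, adjusted p = 0.145) or 2 (-1.21, adjusted p = 0.191), over a range of adjusted p from 0.00350 to 0.191. In p53-null cells it passed after quantile normalization (-1.07, adjusted p = 0.0480) and without p53-246 lymphoma 6 (-0.89, adjusted p = 0.0251), over a range from 0.0251 to 0.305. Psmb8 and Psmb10 passed in neither genotype under any of the 26 alternatives. Psme1 passed in p53-null cells with centred arrays (0.47, adjusted p = 0.0368) and in no other setting. Members outside this class that did not pass were Psma3, Psmb11, Psmd5, Psmd10, Psmd11 and Psme4 in p53-246 cells and Psma3, Psmb11, Psmd9 and Psme4 in p53-null cells. The difference between the genotypes in these contrasts was tested as an interaction: 0 of 40 members and 0% of all genes passed in limma, and 0 members and 3.63% of all genes had an unadjusted p under 0.05. The smallest p were those of Psmd14 (-0.32, SE 0.20, unadjusted p = 0.128), Psmc6 (-0.50, SE 0.32) and Psme1 (-0.30, SE 0.21), all with an adjusted p = 0.997.

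Between the lymphoma genotypes no member passed. In limma 0 of 40 members and 0% of all genes were past the threshold, with 1 member and 2.99% of all genes at an unadjusted p under 0.05, and an unmoderated linear model also gave 0 and 1. The 1 member was Psmb2, at -0.26 (p53-246 minus p53-null, SE 0.09, unadjusted p = 0.00911, adjusted p = 0.994). The highest p53-246 and the lowest p53-null lymphoma are both at 10.41, and the groups do not overlap, as holds for 1 of 40 members and 0.0942% of all genes. Next came Psmd2 (-0.27, SE 0.15) and Psmb4 (-0.18, SE 0.10), whose groups overlap. Psmb9 was at -0.092 and Psmb8 at -0.19.

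The members' differences between lymphoma genotypes had a median of -0.079, with 33 of 40 below 0, beside a median of 0.027 over all genes. Without the narrow arrays the median was -0.057 with 25 of 40 below 0, beside -0.00036 over all genes. The 95% interval of a member reached a median factor of 1.2 to either side, from 1.14 to 1.62 over the 40 members. For Psme4 and Psma3 the intervals were among the widest.

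**Figure D5:**
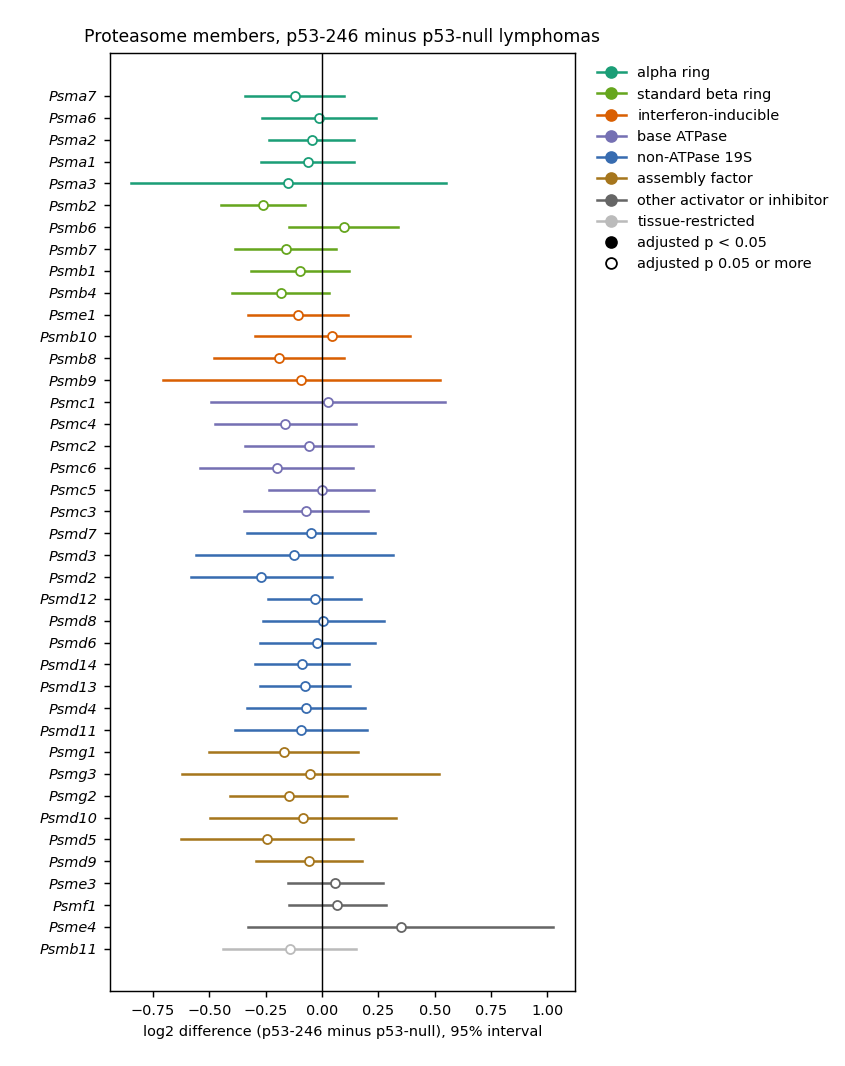
Log2 difference of each member, p53-246 minus p53-null lymphomas (points, with 95% intervals from limma, 6 and 6 samples), in the order of the plot for lymphoma against normal cells; all points are open, since no adjusted p is under 0.05. Most points lie slightly to the left of 0, with a median of -0.079.

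Between p53-246 and p53-null normal cells (2 and 2 samples) 0 of 40 members and 0% of all genes passed in limma, with 0 members and 3.40% of all genes at an unadjusted p under 0.05. The smallest p were those of Psmd14 (0.23, SE 0.17, unadjusted p = 0.199), Psma2 (-0.19, SE 0.15) and Psmd10 (0.42, SE 0.34), each with an adjusted p = 0.999. Psmd14 was at -0.0062 without p53-null normal sample 1. The 95% interval reached a median factor of 1.37 here and 1.44 for the interaction.

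Genes that work with the proteasome followed it in part. Of 17 measured partners and regulators 9 rose and 1 fell in lymphomas, with a median log2 difference of 0.71, beside 20.4% and 17.8% of all genes. The deubiquitinase Uchl5 was at 1.92 (SE 0.10) and the shuttle factor Rad23b at 1.85 (SE 0.11). Pomp, the maturation factor of the core particle, rose by 1.03 (SE 0.087), with 11.75 to 12.22 in lymphomas and 10.86 to 11.06 in normal cells. Zfand5, a proteasome-binding zinc finger protein, fell by 0.66 (SE 0.13). Nfe2l1, the factor that raises proteasome gene transcription when proteasome activity is short, was at -0.12 (SE 0.14, adjusted p = 0.515), and Ngly1, the glycanase that processes it, at -0.35 (SE 0.22, adjusted p = 0.224).

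The interferon pathway and the peptide loading genes moved as follows. Of 13 receptors and factors of interferon signalling 0 rose and 11 fell, with a median of -0.94, beside 20.4% and 17.8% of all genes. The kinase Jak2 fell by 3.13 (SE 0.28), and Irf9 fell by 2.07 (SE 0.20). Irf1, a factor known to act on the Psmb9 and Tap1 promoter, fell by 1.34 (SE 0.11), with 4.95 to 5.56 in lymphomas and 6.33 to 6.72 in normal cells. Its lymphoma mean, 5.24, lies close to the background of 5.16 and its lowest lymphoma value lies below it, so the size of this fall is limited there. Ifnar2 fell by 0.56 and Socs1 was at 0.19 (adjusted p = 0.128). Of 23 interferon-stimulated genes 0 rose and 21 fell, with a median of -1.84, beside the same 20.4% and 17.8% of all genes. In lymphomas 15 (p53-246) and 14 (p53-null) of the 23 lie below background, so their falls, and the median, are limited by it. Ifitm3 fell by 3.27 (SE 0.49), Trim30a fell by 2.80 (SE 0.51), and Dtx3l (-0.37) and Bst2 (0.26) did not pass.

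Of 9 measured genes of class I peptide supply and loading 2 rose and 4 fell, beside 20.4% and 17.8% of all genes. Tap1 fell by 1.52 (SE 0.18, 2.86-fold), with 5.69 to 6.82 in lymphomas and 7.49 to 8.06 in normal cells, so its groups do not overlap. Tapbpl, a peptide editor, fell by 0.64 and Tap2 fell by 0.56, the lymphoma mean of Tap2 lying below background. The chaperone Canx rose by 0.77 and the trimming peptidase Erap1 by 0.69.

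Across the 12 lymphomas Psmb9 was set against 6 genes. Psmb9 and Tap1, which share the stretch between their starts, correlated at r = 0.78 (permutation p = 0.00289, adjusted p = 0.0119) and rho = 0.87 (permutation p = 0.000460, adjusted p = 0.00276). Within genotypes r was 0.85 in p53-246 and 0.86 in p53-null lymphomas (6 each), and it was 0.85 without the 2 lymphomas farthest from the median of Psmb9. Psme1 gave r = 0.75 (permutation p = 0.00396, adjusted p = 0.0119) and rho = 0.83 (permutation p = 0.00128, adjusted p = 0.00384), with 0.87 in p53-246 and 0.60 in p53-null lymphomas and 0.69 without the 2 farthest. Psmb10 gave r = 0.62 (permutation p = 0.0241, adjusted p = 0.0482) and rho = 0.72 (permutation p = 0.0114, adjusted p = 0.0228), with 0.68 in p53-246 and 0.55 in p53-null lymphomas and 0.63 without the 2 farthest.

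The other 3 genes did not pass. Psmb8 gave r = 0.21 (permutation p = 0.505, adjusted p = 0.505) and rho = 0.49 (permutation p = 0.110, adjusted p = 0.165), with r = 0.63 without p53-246 lymphoma 6, a narrow array, and 0.57 without the 2 farthest. Tap2 gave r = 0.45 (permutation p = 0.140, adjusted p = 0.210) and rho = 0.15 (permutation p = 0.653, adjusted p = 0.653), with 0.88 in p53-246 and -0.12 in p53-null lymphomas and -0.16 without the 2 farthest, so it rests on those samples. The standard subunit Psmb6 gave r = 0.26 (permutation p = 0.403, adjusted p = 0.484) and rho = 0.27 (permutation p = 0.391, adjusted p = 0.469), with 0.59 without the 2 farthest.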

How the data were processed

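Total RNA from 16 samples of mouse B cells was hybridised to Affymetrix exon arrays. Values are log2 intensities as deposited by the authors, from 2.51 to 13.5, with no further transformation. The log base is read from their range, since read as natural logs the brightest value would be an intensity of 726214. The steps of probe summary and normalisation are not given in the sources used here. Partek 6.5 and the build mm8 are listed, per the submitters' processing notes, and the series' design mentions mixed model ANOVA.

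Of 23332 transcript clusters, 14996 carry 1 gene symbol, 1019 several and 7317 none. Each of 14860 genes was tested by its brightest single-symbol transcript cluster. Each of the 40 members has 1 such transcript cluster. In R 4.3.3 with limma 3.58.1, a mean for each of 4 groups was fitted over 16 arrays, with empirical Bayes variances, contrasts and Benjamini-Hochberg adjustment over all genes, two-sided, at 0.05. A positive log2 difference means higher in lymphomas, or in p53-246 cells between genotypes, and SE are moderated. The pair test and the correlations used SciPy 1.17.1, the correlations with 100000 resamples. Of 3 planned pairs, Psmb8 with Psmb5 could not be run. The pipeline was tested on simulated data.

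Named members are all interferon-inducible subunits, their standard partners, Psme3, Psme4, Psmf1 and Psmb11, the 3 largest and 2 smallest differences of each other class, members that fell or did not pass, and the 3 smallest p of each genotype contrast and the interaction. Of the 4 pathway lists the 2 largest and 2 smallest differences are named, with Tap1, Irf1, Nfe2l1 and Pomp. Psmb1, Psmb4, Psma1, Psma2, Tap2, Trim30a and the genes of the correlations and motifs beyond these were named after their values were seen. Of these, Psmb1, Psmb4, Psma1, Psma2 and Trim30a also fall under the rules just given. Members and lists were chosen with earlier results of these data known. The array number limits the precision. Same-numbered lymphomas of both genotypes deviated from their group means with correlations from -0.31 to 0.33, and unlike-numbered ones from -0.37 to 0.38. These values show no pairing by replicate number, and they cannot exclude one.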

Additional observations from a re-analysis of the deposited data

Results flagged for a closer look

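Of 80 combinations of a member with a lymphoma group, 4 held a sample set apart from the other 5 by more than 0.625 of the group's range. Chance gives about 1 in 20, which is the share seen, so these samples are listed as a description only. Psmb6 was at 10.30 in p53-246 lymphoma 5, above the next highest at 10.02. Psmc6 was at 9.89 in p53-null lymphoma 1, with the next at 9.57. Psmd2 was at 9.48 in p53-null lymphoma 3, with the next at 9.11. Psmd12 was at 10.25 in p53-246 lymphoma 6, a narrow array, with the next lowest at 10.59.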

How the results depend on the processing

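Under 10 alternatives (scaling, weights, narrow arrays left out, filter, rows tested, variance model, replicate block) the members called in lymphoma against normal cells were 31 to 34 with both genotypes averaged (34 as reported), 28 to 34 in p53-null cells (32) and 30 to 33 in p53-246 cells (31). Leaving out each of 16 samples in turn gave 31 to 35, 28 to 33 and 27 to 32. In each of these the averaged contrast had 0 interferon-inducible members higher and 1 lower. The replicate block gave 31, 31 and 30 members, and a lone sample left in a normal group is assumed to vary like the others. Genotype counts were 0 throughout, apart from 1 in normal cells without p53-null normal sample 2 (Psma3, range 0 to 1). The pair tests were run under 4 of the 10 alternatives (centred arrays, quantile normalization, narrow arrays left out, mean of transcript clusters) and with each sample left out. There the changes ranged from -2.47 to -2.22 for Psmb9 with Psmb6 and from -1.12 to -0.98 for Psmb10 with Psmb7, all past the threshold (adjusted p 0.000549 to 0.00275).

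Directions turned for values that had not passed: Psma3 at -0.10 without the narrow arrays (-0.084 to 1.21 with samples left out); Psmb8 at 0.0486 with centred arrays; Psmb10 at -0.0473 with the replicate block; Psmb11 at 0.0804 with centred arrays and 0.0493 after quantile normalization (-0.206 to 0.102 with samples left out); and Psmd14 between normal genotypes at -0.0062 without the narrow arrays (-0.0062 to 0.465 with samples left out). The cause was not tested. Centring moved the median of all genes in the averaged contrast to 0.038, against -0.094 as deposited, and the median of all members to 1.21, against 1.08.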

Other observations

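Between lymphomas of a genotype the members spread about as much as all genes. The median SD over the 40 members was 0.22 in p53-246 and 0.20 in p53-null lymphomas, beside 0.26 and 0.18 over all genes. Psmd12 of the lid had an SD of 0.034 in p53-null lymphomas, with values from 10.57 to 10.67. The widest were Psme4 (0.90), Psmb9 (0.80) and Psmg3 (0.78) in p53-246 lymphomas, with ranges of 2.35, 2.32 and 2.34 log2 units. In that group the narrow array, lymphoma 6, held the lowest Psme4 and Psmb9 and the highest Psmg3. In p53-null lymphomas Psmd3 (0.53), Psma3 (0.51) and Psmc1 (0.46) varied most.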
